A study of Mus musculus with 12 samples.

Results

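The 10 noncoding RNA genes Dnm3os, H19, Mir22hg, Mir17hg, Malat1, Neat1, Gas5, Snhg1, Snhg8 and Snhg12 were followed across RNA-seq libraries of primary mouse mesangial cells (MMC), the contractile cells that hold the glomerular capillaries together. They were taken by symbol from the 25230 genes in the counts, and each of the 10 had 1 row. Cells were grown from pooled glomeruli of wild-type (WT) mice or of the lncMGC-KO5 mouse line (KO), in which Cas9 removed a short stretch just downstream of the start site of lncMGC, the host transcript of the miR-379 cluster, in C57BL/6J embryos. Cells of each genotype were kept in serum depletion (SD), or TGF-β was added to them at 10 ng/ml for 24 h (TGF). The resulting groups, WT-SD and WT-TGF beside KO-SD and KO-TGF, had 3 libraries each, 12 in all. KO cells came from a single edited line, all groups were grown in the same serum-containing medium before treatment, and lncMGC itself was not analysed here, so the deletion was not checked in these libraries and "KO" stands for the label throughout. Rian and Mirg, noncoding RNAs of the same imprinted region with which mouse lncMGC is described to share exons, were not lower in the libraries labelled KO. By RT-qPCR, the study that made the libraries reported both as significantly lower in KO5 cells. The reason for this difference was not tested. In the order WT-SD, KO-SD, WT-TGF, KO-TGF the mean levels were 42.3, 69.9, 76.2 and 99.3 CPM for Rian and 2.33, 3.67, 3.59 and 4.27 CPM for Mirg, which was under the limit for testing.

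A long noncoding RNA acts as RNA, and the 10 genes do so in different ways. Dnm3os, H19, Mir22hg and Mir17hg carry microRNA hairpins, which are cut out of the host transcript and become the short RNAs that repress messenger RNAs through their seed. Malat1 and Neat1 stay in the nucleus, Malat1 at the splicing-factor domains called nuclear speckles and Neat1 as the scaffold of the paraspeckle. Gas5, Snhg1, Snhg8 and Snhg12 release small nucleolar RNAs (snoRNAs) from their introns, which guide the chemical modification of ribosomal RNA, while their spliced exons are exported and often destroyed by nonsense-mediated decay during translation. In mesangial cells, TGF-β is the best known driver of matrix production in diabetic kidney disease, and microRNAs are among its targets there.

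Libraries had 19898050 to 22827706 counts on genes and their counts agreed closely within groups, with a biological coefficient of variation of 0.0268 over the 11528 genes tested. Levels are given as CPM, the counts of a gene scaled to a common library size after TMM normalization, and as RPKM, which is CPM per kilobase of exon, where genes are compared with each other. Calls that turn with scaling by the total counts without TMM (library-size scaling) are marked as such, since that scaling moved the median log2 fold change of all genes by -0.16 for TGF-β in WT, -0.20 in KO, -0.08 for KO against WT without TGF-β and -0.12 with it. The labels do not say whether the 3 libraries of a group came from separate cultures. The study that made the libraries calls them 3 independent samples, without saying whether these were cultures or animals. P-values thus measure the spread between libraries, which may be technical. If each genotype came from 1 primary culture, genotype and culture cannot be told apart. In bulk RNA, a lower level can be fewer cells of a type or less RNA per cell, and these cannot be told apart. All 10 genes passed the limit of RPKM >1 in at least 1 library. Mir17hg did so in treated libraries only, with a highest value of 1.21. Its place among the genes called higher with TGF-β is therefore not independent of the limit. Mesangial and smooth muscle markers were strongly expressed, with a summed level of 2949 to 3080 CPM in WT-SD, 6139 to 6284 CPM in WT-TGF, 5249 to 5437 CPM in KO-SD and 11450.3 to 11531 CPM in KO-TGF, although Des, a muscle filament gene among them, had a mean of 7.67 CPM in WT-SD against 0.529 CPM in KO-SD.

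Markers of other kidney cells differed between genotypes, and several with TGF-β, beside the KO against WT values and the TGF-β responses that follow. The 7 macrophage markers summed to 26.2 to 28.1 CPM in WT-SD and 2.06 to 2.22 CPM in KO-SD, where Adgre1, Itgam and C1qa were at 0 in all 3 libraries. The 7 tubular markers summed to 67.7 to 74.4 CPM in WT-SD and 12.9 to 15.01 CPM in KO-SD, with Slc34a1, Umod and Aqp2 at 0 in all 12 libraries. The 7 podocyte markers summed to 459 to 468 CPM in WT-SD and 218 to 227 CPM in KO-SD, while the slit diaphragm gene Nphs1 stayed at or under 0.0158 CPM on average in every group. All 3 macrophage, the 2 tubular and all 4 podocyte markers that passed the RPKM limit were lower in KO in both conditions, while of 9 mesangial markers 7 were higher and 2 lower in KO without TGF-β and 5 and 3 with it. Shares over all genes tested were 30.9% higher and 25.2% lower without TGF-β, and 27.2% and 27.8% with it. The limit is met by 1 library, and Adgre1, at 0 in every KO library, met it in WT alone. For such markers the direction is partly set by the limit, while the sums over all 7 do not depend on it. With TGF-β the tubular sums were 17.2 to 18.8 CPM in WT and 4.01 to 4.26 CPM in KO, the macrophage sums 15.8 to 19.5 CPM and 0.802 to 1.45 CPM, and the podocyte sums 455 to 474 CPM and 205 to 220 CPM. The 7 endothelial markers summed to at most 1.21 CPM in any library, and none was tested. Their part in the results was not tested.

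The microRNA products show what the host genes encode. Mature sequences were taken from RefSeq (GRCm38.p6), written 5′ to 3′ with the seed, bases 2 to 8, in capitals. Dnm3os (chr1:162217623-162225550, plus strand) lies on the opposite strand within the dynamin gene Dnm3 and holds the hairpins of miR-199a and miR-214, whose arms all differ in seed.
mmu-miR-199a-5p: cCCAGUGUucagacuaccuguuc
mmu-miR-199a-3p: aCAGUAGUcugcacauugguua
mmu-miR-214-5p: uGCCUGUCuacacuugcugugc
mmu-miR-214-3p: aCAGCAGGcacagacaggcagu
H19 (chr7:142575530-142578146, minus strand) carries miR-675, and Mir22hg (chr11:75461539-75466690, plus strand) carries miR-22.
mmu-miR-675-5p: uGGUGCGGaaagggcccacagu
mmu-miR-675-3p: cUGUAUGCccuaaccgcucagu
mmu-miR-22-5p: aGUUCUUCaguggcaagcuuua
mmu-miR-22-3p: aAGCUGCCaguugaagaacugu
Mir17hg (chr14:115044390-115046728, plus strand) is the annotated end of the miR-17-92 host. Of the 6 guide strands shown, miR-17 and miR-20a share one seed and miR-19a and miR-19b another.
mmu-miR-17-5p: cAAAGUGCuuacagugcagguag
mmu-miR-20a-5p: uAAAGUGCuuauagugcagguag
mmu-miR-18a-5p: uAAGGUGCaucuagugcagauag
mmu-miR-19a-3p: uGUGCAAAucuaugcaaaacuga
mmu-miR-19b-3p: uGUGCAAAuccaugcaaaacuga
mmu-miR-92a-3p: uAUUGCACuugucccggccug
The counted row of Mir17hg starts inside the Mir19b-1 hairpin, and the hairpins of Mir17, Mir18, Mir19a and Mir20a end 127 to 636 bases upstream of it, so reads from that part of the host are not in its row.

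Mature microRNAs are not in libraries of polyadenylated RNA, and none of the values below is a microRNA level. The rows of Mir199a-2, Mir214, Mir675, Mir22 and Mir92-1 held 0 counts in all 12 libraries, and those of Mir17, Mir18, Mir19a, Mir20a and Mir19b-1 held 1 to 7 counts in total. Reads on both a hairpin and an exon of its host were counted for neither.

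With TGF-β, 7 of the 10 genes changed in WT MMC at an adjusted p below 0.05 (quasi-likelihood test of edgeR, Benjamini-Hochberg adjusted over all genes tested, as for every adjusted p here), beside 72.4% of all genes tested. Of these 4 were higher and 3 lower, beside 36.0% and 36.4% of all genes. In KO MMC 9 of the 10 passed, beside 74.1%, and 4 were higher and 5 lower, beside 34.9% and 39.1%. With library-size scaling 4 were higher and 4 lower in WT, and 3 and 6 in KO. With the added condition of a fold change above 2, 3 of the 10 remained in WT (Dnm3os, H19 and Neat1), beside 9.94% of all genes, and 2 in KO (H19 and Neat1), beside 13.5%. Over the 10 genes the log2 fold changes had a median of 0.12 in WT and -0.21 in KO, and the median of all genes tested was -0.0050 and -0.025. Treated and untreated libraries did not overlap for 7 of the 10 genes in WT, beside 75.1% of all genes tested, and for 8 in KO, beside 74.4%. Levels in every library are plotted by gene and group.

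**Figure D1:**
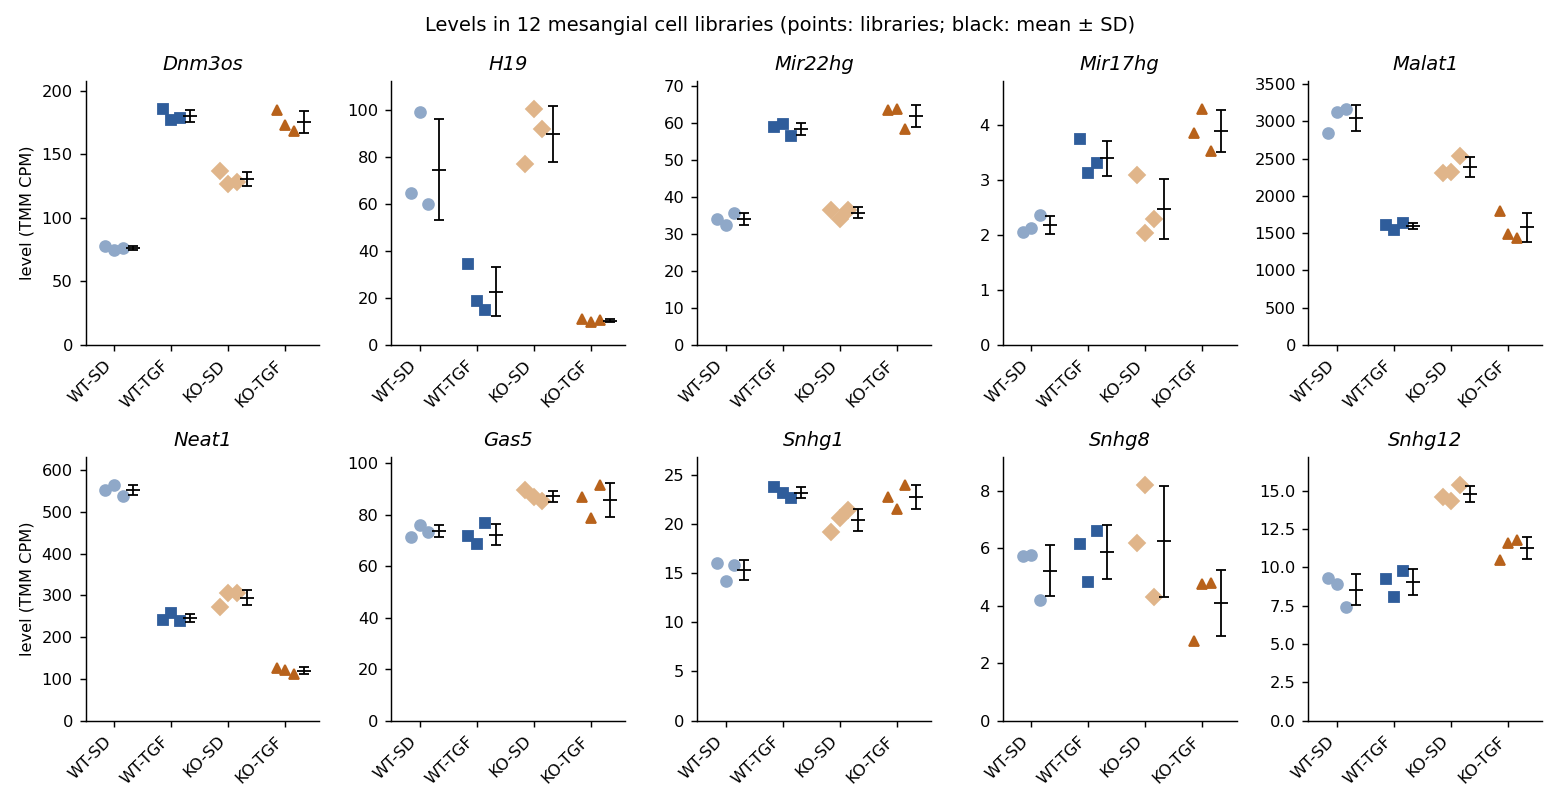
TMM CPM of the 10 noncoding RNA genes in each of the 12 libraries, with a linear axis from 0 in every panel; points are libraries and the black bar is the mean ± SD of 3 libraries. H19 fell to 9.68 to 10.98 CPM in KO-TGF, Dnm3os rose to a similar level in both genotypes, and Gas5 differed by genotype but not by treatment.

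Dnm3os, the host of miR-199a and miR-214, rose with TGF-β in both genotypes, and more in WT. In WT-SD it had 77.4, 74.4 and 76.1 CPM and in WT-TGF 185, 177 and 178 CPM. KO-SD libraries had 137, 126 and 128 CPM and in KO-TGF 185, 173 and 168 CPM. The SD and TGF libraries did not overlap in either genotype, KO-SD lay between WT-SD and WT-TGF, and the TGF groups overlapped. On the log2 scale Dnm3os rose with TGF-β by 1.25 in WT (standard error 0.036, adjusted p = 1.43e-23) and by 0.43 in KO (0.034, adjusted p = 1.78e-12). The response in KO minus that in WT was -0.82 (standard error 0.050, adjusted p = 5.79e-14). Without TGF-β the gene was higher in KO, at 0.78 on the log2 scale (adjusted p = 1.21e-17), while the difference after TGF-β was -0.04 with a 95% interval of -0.11 to 0.031 (adjusted p = 0.352), and -0.16 with library-size scaling (adjusted p = 0.00013). Dnm3, which is read from the opposite strand, had 160 to 269 counts a library against 1673 to 3967 for Dnm3os, and was under the RPKM limit, with a mean of 11.1 CPM in WT-SD, 8.51 CPM in WT-TGF, 10.3 CPM in KO-SD and 10.4 CPM in KO-TGF.

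The Dnm3os promoter is printed because Dnm3os had the largest rise with TGF-β in WT of the 10 genes. The RefSeq window (GRCm38.p6, chr1:162217373-162217672, plus strand, 250 bases before to 50 after the annotated start) was searched on both strands for CAGAC, which is read as GTCTG on the other strand and is the core of a Smad binding element; matches are in capitals.
Dnm3os promoter: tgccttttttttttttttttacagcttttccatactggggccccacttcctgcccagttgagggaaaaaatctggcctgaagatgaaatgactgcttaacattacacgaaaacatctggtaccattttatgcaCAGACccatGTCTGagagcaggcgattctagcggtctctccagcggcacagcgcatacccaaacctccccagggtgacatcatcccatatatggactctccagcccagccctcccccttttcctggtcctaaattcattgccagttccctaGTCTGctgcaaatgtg
The letters occurred 3 times in this window. Of the 32851 promoter windows in the table, 49.6% held at least 1 match and 3.90% held 3 or more. Snhg12, which did not pass the test with TGF-β in WT, also had 3, Gas5, Mir22hg and Mir17hg had 1 in each window, and Snhg1, Snhg8 and Malat1 had 0. The Mir17hg window is not the promoter of the host, since it holds the Mir20a hairpin and lies after those of Mir17, Mir18 and Mir19a. A match describes these letters only and is not a measured binding site.

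H19, an imprinted RNA that is abundant in fetal tissue and is expressed from the maternal copy opposite Igf2, fell with TGF-β and fell further in KO. It had 64.6, 99.3 and 60.0 CPM in WT-SD and 34.4, 18.8 and 15.1 CPM in WT-TGF. Levels were 77.0, 100.3 and 91.8 CPM in KO-SD and 10.98, 9.68 and 10.5 CPM in KO-TGF. The treated and untreated libraries did not overlap in either genotype, and every KO-TGF library was below every WT-TGF library. WT libraries of H19 were uneven, with a coefficient of variation of 45.1% in WT-TGF and 28.8% in WT-SD against 13.1% and 6.31% in KO-SD and KO-TGF. H19 changed by -1.72 on the log2 scale in WT (standard error 0.166, adjusted p = 1.25e-10) and by -3.11 in KO (0.195, adjusted p = 4.2e-15), which is 3.29-fold and 8.64-fold lower. The difference between the responses was -1.39 (standard error 0.279, adjusted p = 0.000265), and without WT-TGF replicate 1 it was -0.98, still past the threshold (adjusted p = 0.00334).

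KO against WT gave -1.13 for H19 with TGF-β (standard error 0.244, adjusted p = 0.000216). Without WT-TGF replicate 1, the highest library of its group, this was -0.72 (adjusted p = 0.00778). Without TGF-β the difference was 0.26 (standard error 0.134, adjusted p = 0.101), and it passed the threshold at 0.53 without WT-SD replicate 2, at 0.36 without KO-SD replicate 1 and at 0.26 without WT-TGF replicate 1 (adjusted p = 0.00079, 0.0068 and 0.0351). Igf2, the growth factor gene next to H19, also fell with TGF-β, by 1.09 in WT and by 1.46 in KO on the log2 scale (adjusted p = 4.36e-05 and 8.19e-08), from means of 6.79 and 10.9 CPM. For Igf2 the difference between the responses did not pass the threshold (-0.37, adjusted p = 0.425). Other neighbors of H19 were low, with Tnnt3 at 1.07 CPM and Mrpl23 at 0.224 CPM in WT-SD, apart from Lsp1 at 91.3 CPM. Over the 12 genomic partners of the 10 genes that were tested, 4 rose and 4 fell with TGF-β in WT and 3 and 5 in KO (1 and 7 in both with library-size scaling). Of all genes tested, 36.0% rose and 36.4% fell in WT, and 34.9% and 39.1% in KO.

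Mir22hg, the host of miR-22, rose with TGF-β by nearly the same amount in both genotypes. It had 34.2, 32.5 and 35.8 CPM in WT-SD and 58.9, 59.6 and 56.5 CPM in WT-TGF. For KO-SD the values were 36.6, 34.0 and 36.6 CPM, and for KO-TGF 63.6, 63.7 and 58.3 CPM. The treated libraries all lay above the untreated ones, and the genotypes overlapped in both conditions. The rise was 0.77 on the log2 scale in WT (standard error 0.046, adjusted p = 1.44e-15) and 0.79 in KO (0.046, adjusted p = 7.93e-16), and the difference of 0.02 had a 95% interval of -0.12 to 0.15. KO against WT gave 0.07 without TGF-β and 0.08 with it (adjusted p = 0.264 and 0.103). The second value became 0.14 and passed the threshold without KO-TGF replicate 3 (adjusted p = 0.0113).

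Mir17hg, the host of the miR-17-92 cluster, which is known as a target of Myc, had the fewest counts of the 10 genes, 42 to 80 a library. It had 2.05, 2.12 and 2.37 CPM in WT-SD and 3.73, 3.12 and 3.31 CPM in WT-TGF. KO-SD gave 3.08, 2.03 and 2.29 CPM and KO-TGF 3.86, 4.28 and 3.52 CPM. The treated and untreated libraries did not overlap in either genotype, but KO-SD replicate 1 came close to WT-TGF. Only treated libraries took the gene past the RPKM limit, with at most 0.870 RPKM in SD. The rise that follows is thus not independent of that limit. Mir17hg rose by 0.64 on the log2 scale in WT (standard error 0.165, adjusted p = 0.00109) and by 0.65 in KO (0.162, adjusted p = 0.000654). The difference between these responses, 0.02, had a wide 95% interval of -0.46 to 0.49. KO against WT did not pass the threshold in either condition (0.18 and 0.20, adjusted p = 0.398 and 0.279).

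**Figure D2:**
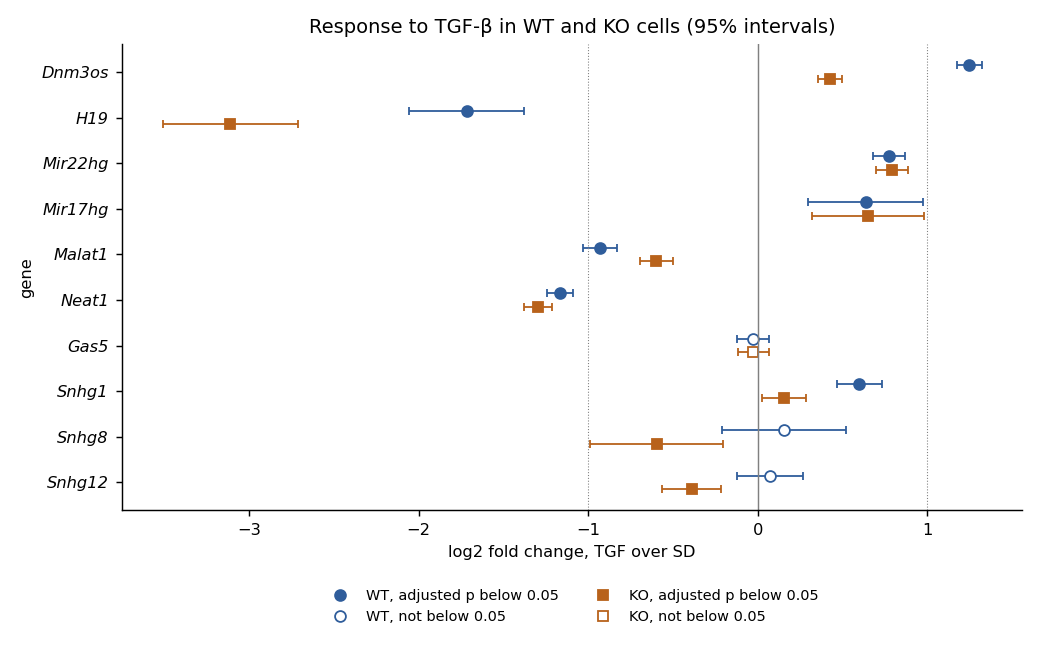
Log2 fold change with TGF-β (TGF over SD, x axis) of each gene in WT and in KO cells, with 95% intervals; filled symbols passed an adjusted p of 0.05 and dotted lines mark a 2-fold change. WT and KO values lie on each other for Mir22hg, Mir17hg and Gas5 and apart for Dnm3os (1.25 and 0.43) and H19 (-1.72 and -3.11).

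Malat1 (chr19:5795690-5802672, minus strand), the most abundant of the 10 genes per length, fell with TGF-β in both genotypes and fell less in KO. It had 2848, 3120 and 3161 CPM in WT-SD and 1611, 1547 and 1634 CPM in WT-TGF. Libraries of KO-SD had 2301, 2319 and 2535 CPM and those of KO-TGF 1793, 1493 and 1441 CPM. The 2 treated groups overlapped, and among the untreated libraries every KO library was below every WT library. Malat1 changed with TGF-β by -0.93 on the log2 scale in WT (standard error 0.048, adjusted p = 5.33e-17) and by -0.60 in KO (0.048, adjusted p = 1.97e-12), a difference of 0.33 (standard error 0.068, adjusted p = 0.000358). KO against WT was -0.35 without TGF-β (adjusted p = 2.34e-07) and -0.02 with it (adjusted p = 0.753). The second value became -0.10 and passed the threshold without KO-TGF replicate 1 (adjusted p = 0.0226), the library with the highest level of its group, and was -0.14 with library-size scaling (adjusted p = 0.0125).

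Neat1 (chr19:5824708-5845480, minus strand), a neighbor of Malat1, was lower with TGF-β in both genotypes and lower in KO in both conditions. It had 553, 564 and 539 CPM in WT-SD and 242, 257 and 239 CPM in WT-TGF. KO-SD had 273, 305 and 305 CPM, and KO-TGF had 127, 121 and 112 CPM. No groups overlapped, and each KO-TGF library held less than 1 in 4 of the level of any WT-SD library. With TGF-β Neat1 changed on the log2 scale by -1.17 in WT and by -1.29 in KO (standard errors 0.037 and 0.040, adjusted p = 1.45e-22 and 7.81e-23). KO against WT gave -0.91 without TGF-β and -1.04 with it (standard errors 0.036 and 0.041, adjusted p = 1.80e-19 and 9.49e-20). The difference between the responses, -0.13 with a 95% interval of -0.24 to -0.017, did not pass after adjustment (adjusted p = 0.0873). It did pass at -0.18 without KO-SD replicate 1 (adjusted p = 0.00102) and at -0.17 with library-size scaling (adjusted p = 0.0183). The row covers both the short and the long transcript of Neat1, of which the long one builds the paraspeckle, and the values do not separate them.

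Both nuclear RNAs moved with the share of reads that fell in no gene, which holds reads in introns and between genes. This share was 15.2% to 15.4% of all read entries in WT-SD, 12.7% to 13.4% in KO-SD, 12.2% to 12.5% in WT-TGF and 10.3% to 10.9% in KO-TGF. Group means of Neat1 stood in the same order, 552, 294, 246 and 120 CPM, and so did those of Malat1, 3043, 2385, 1597 and 1576 CPM, although the treated groups of Malat1 overlapped. The TMM factors, which scale the library sizes, also ran from 1.09 to 1.096 in WT-SD to 0.898 to 0.904 in KO-TGF. Their part in the results was not tested. Malat1 ends in a triple helix in place of a usual poly(A) tail, and the libraries were made by poly(A) capture.

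**Figure D3:**
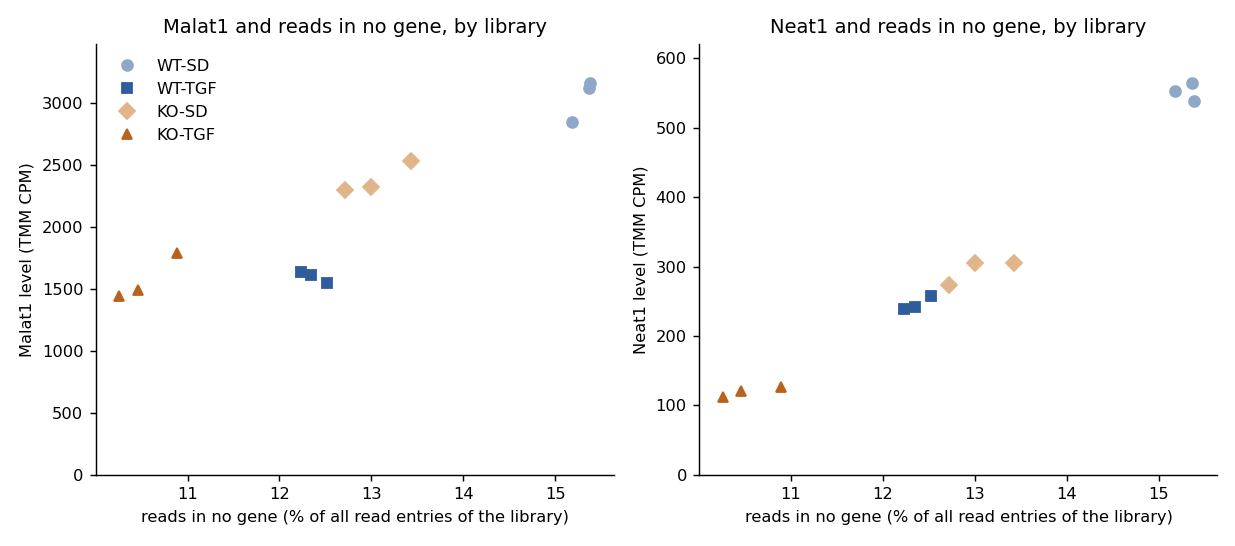
Malat1 (left) and Neat1 (right) level in TMM CPM against the percent of read entries that fell in no gene, 1 point per library, marked by group. WT-SD libraries lie at the upper right and KO-TGF libraries at the lower left, and WT-TGF libraries of Malat1 lie below KO-SD libraries with a share close to theirs.

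Genes for proteins that work with these RNAs moved in both directions, as did genes at large. Of all genes tested, 36.0% rose and 36.4% fell with TGF-β in WT, and 34.9% and 39.1% in KO. KO against WT had 30.9% higher and 25.2% lower without TGF-β, and 27.2% and 27.8% with it. Of 15 paraspeckle proteins tested, 9 rose and 1 fell with TGF-β in WT, and 8 rose and 5 fell in KO, while with library-size scaling 6 rose and 5 fell in WT and 2 and 9 in KO. Matr3, the gene of a nuclear matrix protein, fell by 0.28 on the log2 scale in WT and by 0.22 in KO (adjusted p = 1.84e-08 and 1.68e-06). In KO against WT without TGF-β, 10 were higher and 1 lower, led by Pspc1 at 0.51 (adjusted p = 2.23e-08). With TGF-β 7 were higher and 2 lower, led by Taf15 at 0.57 (adjusted p = 2.87e-15), and with library-size scaling 2 were higher and 4 lower. Of 12 nuclear speckle and Malat1 processing genes, 8 rose and 2 fell in each genotype with TGF-β (5 and 4 in WT and 3 and 4 in KO with library-size scaling). The splicing factor gene Srsf2 rose most, by 0.59 in WT and 0.49 in KO, and Srsf5 fell by 0.27 in both.

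Between genotypes, 6 of the 10 noncoding RNA genes differed without TGF-β, beside 56.1% of all genes tested. Of these 4 were higher and 2 lower in KO, beside 30.9% and 25.2%. With TGF-β 5 of the 10 differed, beside 55.0%, and 2 were higher and 3 lower, beside 27.2% and 27.8%. KO and WT libraries did not overlap for 6 of the 10 genes without TGF-β, beside 59.2% of all genes, and for 5 with it, beside 61.5%. None of the 10 differed by more than 2-fold without TGF-β, beside 6.45% of all genes, and 2 did with it, H19 and Neat1, beside 6.10%. Of these, H19 fell short of 2-fold without WT-TGF replicate 1 (-0.72 on the log2 scale) and Neat1 without KO-TGF replicate 3 (-0.97). Under library-size scaling, 1 gene was higher and 6 were lower in KO with TGF-β. For the response in KO minus that in WT, 6 of the 10 genes passed, beside 25.3% of all genes tested. Malat1 was the 1 higher and 5 were lower, beside 8.67% and 16.6%, and 1 of them, H19, differed by more than 2-fold, beside 2.73%, and did not without WT-TGF replicate 1 (-0.98).

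**Figure D4:**
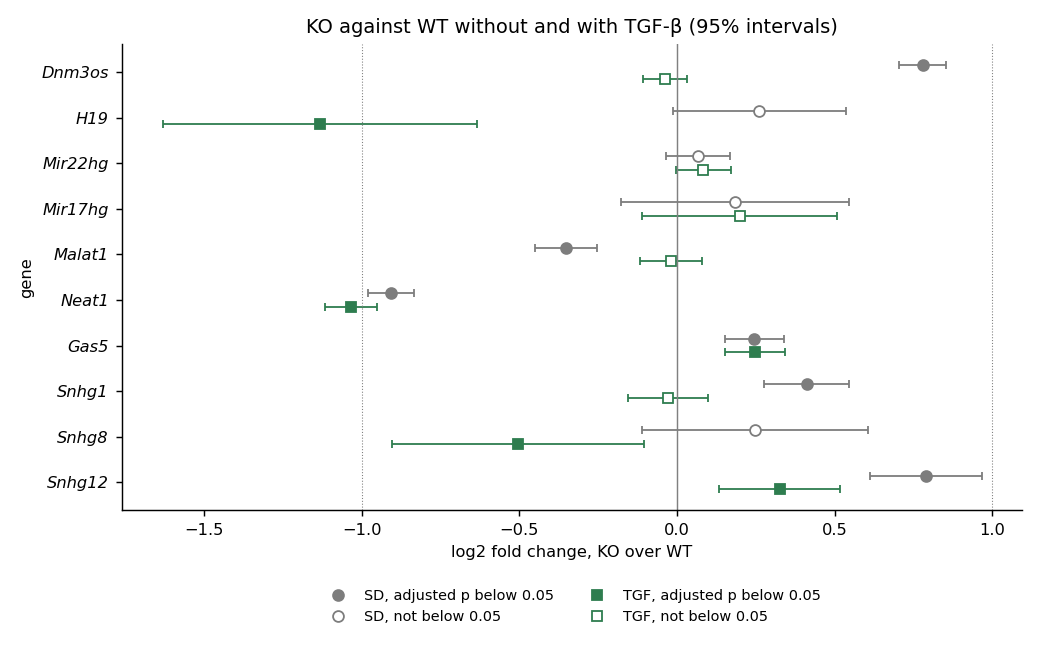
Log2 fold change of KO over WT (x axis) for each gene without TGF-β (SD) and with it (TGF), with 95% intervals; filled symbols passed an adjusted p of 0.05 and dotted lines mark a 2-fold change. Neat1 was lower and Gas5 and Snhg12 higher in KO in both conditions, and Dnm3os, Malat1 and Snhg1 differed only without TGF-β at this threshold.

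Starts of the snoRNA hosts are shown because host transcripts of this kind often begin with a C followed by a run of pyrimidines, the 5′ terminal oligopyrimidine (TOP) motif of genes for the translation machinery. RefSeq windows (GRCm38.p6) of 20 bases before to 30 from each annotated start are given on the transcribed strand, with the run in capitals where a C followed by at least 4 C or T began within 5 bases of the start.
Gas5: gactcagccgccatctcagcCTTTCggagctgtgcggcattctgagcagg
Snhg1: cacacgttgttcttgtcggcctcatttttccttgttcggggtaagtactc
Snhg8: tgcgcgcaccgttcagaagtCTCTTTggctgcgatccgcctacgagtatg
Snhg12: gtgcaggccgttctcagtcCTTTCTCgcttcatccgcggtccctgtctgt
Gas5 is shown at its second start (chr1:161035146-161035195), Snhg1 at chr19:8723467-8723516, Snhg8 at chr3:123508307-123508356 on the minus strand, and Snhg12 at chr4:132308658-132308707. The run was found for Gas5, Snhg8 and Snhg12, and also for Dnm3os and Mir22hg, and 18.3% of all 32851 windows had one. It was not found at the annotated start of Snhg1, of Malat1, of Mir17hg or at the first start of Gas5.

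Gas5 (chr1:161034601-161038539, plus strand), whose spliced RNA binds the glucocorticoid receptor and accumulates when growth stops, was higher in KO in both conditions and did not respond to TGF-β. It had 71.5, 75.9 and 73.2 CPM in WT-SD and 71.6, 68.4 and 76.7 CPM in WT-TGF. KO levels were 89.4, 86.9 and 85.2 CPM in KO-SD and in KO-TGF 86.9, 78.6 and 91.5 CPM. Every KO library lay above every WT library. KO over WT was 0.25 on the log2 scale in both conditions (standard errors 0.045 and 0.046, adjusted p = 3.04e-05 and 3.88e-05). With TGF-β it was -0.03 in WT (95% interval -0.12 to 0.068) and -0.03 in KO (-0.12 to 0.068), close to the median of all genes. With library-size scaling these were -0.19 and -0.23 and passed the threshold (adjusted p = 0.000591 and 3.28e-05). Zbtb37 overlaps the start of Gas5 on the opposite strand, and counting was strand-specific.

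Snhg1 (chr19:8723487-8726326, plus strand) rose with TGF-β in WT and was higher in KO before treatment. It had 16.1, 14.2 and 15.8 CPM in WT-SD and 23.8, 23.2 and 22.6 CPM in WT-TGF. KO-SD libraries held 19.2, 20.6 and 21.4 CPM and KO-TGF libraries 22.7, 21.5 and 24.0 CPM. KO-SD lay above WT-SD without overlap, and the treated groups overlapped, as for Dnm3os. Snhg1 rose with TGF-β by 0.60 on the log2 scale in WT (standard error 0.064, adjusted p = 1.32e-09) and the response in KO minus that in WT was -0.44 (standard error 0.090, adjusted p = 0.000351). In KO alone it was 0.16 (adjusted p = 0.0274), which was 0.11 and lost the threshold without KO-SD replicate 1 (adjusted p = 0.134), was 0.14 without KO-TGF replicate 3 (adjusted p = 0.0892), and turned to -0.05 under library-size scaling. KO against WT was 0.41 without TGF-β (adjusted p = 3.41e-06) and -0.03 with it (adjusted p = 0.708, or -0.15 and 0.0367 under library-size scaling).

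Snhg12 (chr4:132308678-132311024, plus strand) was higher in KO in both conditions and fell with TGF-β in KO. It had 9.28, 8.93 and 7.42 CPM in WT-SD and 9.27, 8.07 and 9.73 CPM in WT-TGF. In the KO it had 14.6, 14.3 and 15.4 CPM without TGF-β and in KO-TGF 10.4, 11.6 and 11.8 CPM. Every KO library lay above every WT library, and KO-SD was the highest group. KO over WT was 0.79 on the log2 scale without TGF-β (standard error 0.086, adjusted p = 3.52e-09) and 0.33 with it (standard error 0.093, adjusted p = 0.00385). The second value was 0.20 and lost the threshold under library-size scaling (adjusted p = 0.0597). With TGF-β the change was 0.07 in WT (adjusted p = 0.494) and -0.39 in KO (adjusted p = 0.000147), and the difference of -0.46 was past the threshold (standard error 0.128, adjusted p = 0.0067).

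Snhg8 (chr3:123507552-123508336, minus strand), the shortest of the 4 snoRNA hosts, was low and uneven, with 52 to 170 counts a library. It had 5.73, 5.77 and 4.19 CPM in WT-SD and 6.15, 4.81 and 6.62 CPM in WT-TGF. Values were 6.202, 8.20 and 4.31 CPM in KO-SD and in KO-TGF 2.79, 4.76 and 4.78 CPM. KO-TGF lay below WT-TGF by a narrow gap, from 4.78 to 4.81 CPM, and the other pairs of groups compared overlapped. For Snhg8 the response to TGF-β in KO was -0.60 on the log2 scale (standard error 0.192, adjusted p = 0.00662) and KO against WT with TGF-β was -0.50 (adjusted p = 0.029), and the difference between the responses was -0.75 (adjusted p = 0.0337). None of these 3 calls held when DESeq2 was used (adjusted p = 0.0645, 0.154 and 0.223). Without KO-TGF replicate 1, the lowest library, they were -0.36, -0.27 and -0.50 and none passed (adjusted p = 0.104, 0.266 and 0.178). Other single libraries also ended calls of Snhg8. Without KO-SD replicate 2 the response in KO was -0.35 and the difference between responses -0.51. Without WT-TGF replicate 1 or 3 the KO against WT value was -0.47 or -0.41 and the difference between responses -0.72 or -0.66. Without WT-SD replicate 3 that difference was -0.62. KO against WT without TGF-β was 0.25 (adjusted p = 0.24) and passed at 0.46 without KO-SD replicate 3 (adjusted p = 0.0199).

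The snoRNAs themselves are mostly too short for these libraries, and their rows held few counts. Snord47 in Gas5 had 13 to 30 counts a library, Snord22 in Snhg1 16 to 42, and Snora61, Snora16a, Snord99 and Snora44 in Snhg12 had 161, 87, 56 and 53 counts in total. Snora24, which lies in Snhg8, had 0. No change of a snoRNA was read from these counts.

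The other snoRNA hosts give a setting for Gas5 and the Snhg genes. Over all genes tested, KO against WT had 30.9% higher and 25.2% lower without TGF-β, and 27.2% and 27.8% with it. With TGF-β 36.0% rose and 36.4% fell in WT, and 34.9% and 39.1% in KO. The difference between responses was higher for 8.67% and lower for 16.6%. Of 22 tested, 13 were higher and 2 lower in KO without TGF-β, with a median log2 fold change of 0.17 against 0.019 for all genes, and 10 and 2 with library-size scaling. With TGF-β 9 were higher and 1 lower in KO, and 5 and 7 with library-size scaling. Snhg6 was highest without TGF-β, at 0.53 (adjusted p = 5.40e-07), and Snhg18 with it, at 0.65 (adjusted p = 5.14e-10). With TGF-β 14 rose and 4 fell in WT (10 and 5 with library-size scaling), among them the nucleolar gene Nop56 at 0.74 (adjusted p = 3.02e-14) and Snhg20 at -0.65 (adjusted p = 1.01e-05). In KO 12 rose and 3 fell with TGF-β, and under library-size scaling 4 rose and 8 fell. For the response in KO minus that in WT, 0 of the 22 were higher and 4 lower (0 and 8 with library-size scaling, 0 and 2 with DESeq2), led by Snhg5 at -0.54 (adjusted p = 2.53e-05), with means of 14.3 CPM in WT-SD, 20.2 CPM in WT-TGF, 20.4 CPM in KO-SD and 19.9 CPM in KO-TGF.

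A list of 16 genes held as known 5′ TOP genes was also read, whose start sequences were not searched here. It has translation factors such as Eef2 and Eif4b beside genes of other kinds, among them Vim, a filament gene, and Fau, which encodes a ribosomal protein. Of these 16 genes, 15 were higher in KO and 0 lower both without and with TGF-β, with median log2 fold changes of 0.31 and 0.26. Over all genes tested, 30.9% and 27.2% were higher and 25.2% and 27.8% lower. Under library-size scaling 12 and 9 of the 16 were higher, and 1 was lower without TGF-β. Hnrnpa1, an RNA-binding protein gene, was 0.67 higher without TGF-β (adjusted p = 6.39e-06) and Pabpc1, the poly(A)-binding protein gene, 0.48 higher with it (adjusted p = 2.23e-17). The gene that did not pass was Nap1l1, a histone chaperone gene, at -0.06 without TGF-β (adjusted p = 0.0799), and Tpt1 at 0.16 with it (adjusted p = 0.241). TGF-β raised 10 and lowered 5 of the 16 in WT, beside 36.0% and 36.4% of all genes. In KO it raised 7 and lowered 5, beside 34.9% and 39.1%. Library-size scaling gave 4 and 7 in WT and 3 and 7 in KO. Of 10 factors of nonsense-mediated decay, 1 was higher and 3 lower in KO without TGF-β, and 2 and 3 with it (1 and 7, and 0 and 7, with library-size scaling), led by Smg5 at 0.18 and 0.17 and Upf3b at -0.23 and -0.28.

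**Figure D5:**
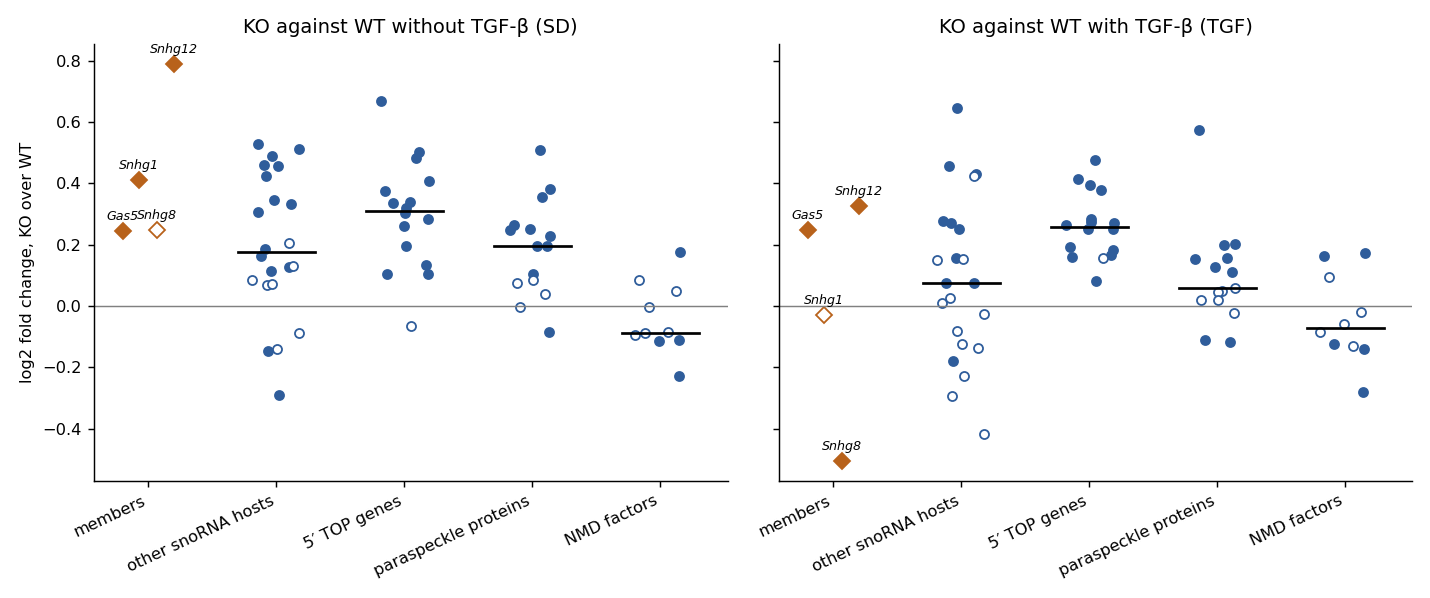
Log2 fold change of KO over WT (y axis) without TGF-β (left) and with it (right) for the 4 snoRNA hosts described above and for the genes tested of 4 lists; each point is a gene, filled where the adjusted p was below 0.05, and black bars are medians. Points of the 5′ TOP genes lie above 0 in both panels except Nap1l1 on the left, and the members spread from -0.50 for Snhg8 to 0.79 for Snhg12.

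Among 14 other microRNA hosts tested, 6 rose and 8 fell with TGF-β in WT, beside 36.0% and 36.4% of all genes. In KO 4 rose and 8 fell, beside 34.9% and 39.1%. Library-size scaling gave 3 and 8 in WT and 3 and 10 in KO. Mir155hg, the host of miR-155, had means of 8.93 and 30.01 CPM in the WT groups and of 7.60 and 32.2 CPM in the KO groups, a rise on the log2 scale of 1.75 and 2.09 (adjusted p = 8.54e-20 and 2.51e-21). Ctdspl, a phosphatase gene, fell most in WT, by 1.24. Srebf2, the regulator of cholesterol synthesis and host of miR-33, responded more in KO, with a difference of 0.62 (adjusted p = 3.82e-10), and Mcm7, a replication gene and host of the miR-106b cluster, had a difference of -0.67 (adjusted p = 3.62e-06). Of 17 other long noncoding RNAs tested, 3 rose and 10 fell with TGF-β in each genotype (3 and 11 in WT and 2 and 12 in KO under library-size scaling). Morrbid, a regulator of the nearby gene Bcl2l11, rose by 2.22 in WT and 2.21 in KO, and Trp53cor1, known as lincRNA-p21, fell by 1.37 in WT. Rian rose by 0.85 in WT and 0.51 in KO and was 0.72 higher in KO without TGF-β (adjusted p = 2.63e-14).

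Of 11 reported regulators of these genes that were tested, 5 rose and 4 fell with TGF-β in WT, beside 36.0% and 36.4% of all genes. In KO 5 rose and 5 fell, beside 34.9% and 39.1%. Library-size scaling gave 4 and 4 in WT and 4 and 6 in KO. Myc had means of 13.1 CPM in WT-SD, 39.0 CPM in WT-TGF, 18.96 CPM in KO-SD and 39.9 CPM in KO-TGF, a rise of 1.57 and 1.07 on the log2 scale with a difference of -0.50 (adjusted p = 2.40e-05). Mir17hg, the reported Myc target, had the responses of 0.64 and 0.65 given above. Mycn was at -3.17 in KO against WT without TGF-β on the log2 scale, with a mean of 0.922 CPM against 8.26 CPM in WT-SD (adjusted p = 2.80e-16). In that comparison 5 of the 11 regulators were higher and 3 lower in KO (2 and 4 under library-size scaling), beside 30.9% and 25.2% of all genes. Of 15 microRNA processing genes, 3 rose and 9 fell with TGF-β in each genotype (1 and 12 in WT and 1 and 13 in KO under library-size scaling), with Dgcr8, a subunit of the nuclear Microprocessor, up by 0.33 and 0.41 and Ago4, an Argonaute gene, at -0.70 and -0.84.

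Published targets of the hosted microRNAs moved in both directions, as did genes at large. Of all genes tested, 36.0% rose and 36.4% fell with TGF-β in WT, and 34.9% and 39.1% in KO. Of 12 published targets of the miR-17-92 microRNAs, 4 rose and 7 fell with TGF-β in WT, and 4 rose and 6 fell in KO, with medians of -0.12 and -0.078 (3 and 8 in both under library-size scaling). Of 14 published targets of miR-199a, miR-214, miR-22 or miR-675, 3 rose and 7 fell in each genotype, with medians of -0.099 and -0.0995 (2 and 10 in WT and 2 and 11 in KO under library-size scaling). Cadm1, a cell adhesion gene of the second list, rose by 0.92 in WT and 1.81 in KO and was at -3.54 in KO against WT without TGF-β (adjusted p = 1.65e-27). In that comparison 3 of the 14 were higher and 7 lower in KO (3 and 10 under library-size scaling), with a median of -0.089. Over all genes tested 30.9% were higher and 25.2% lower. MicroRNA levels were not measured in these libraries.

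Compared per length, the order of the 10 genes changed between groups. In WT-SD Malat1 had 436 ± 24.4 RPKM (SD, n = 3), H19 30.3 ± 8.73, Neat1 26.6 ± 0.608, Gas5 19.6 ± 0.597, Mir22hg 17.7 ± 0.843 and Dnm3os 9.58 ± 0.194 RPKM. Snhg8, Snhg1 and Snhg12 followed at 6.13 ± 1.06, 5.17 ± 0.341 and 3.56 ± 0.412 RPKM, and Mir17hg at 0.616 ± 0.047 RPKM. H19 and Neat1 did not differ beyond their spread in this order, and neither did Snhg8 and Snhg1. In KO-TGF Malat1 was again highest at 226 ± 27.2 RPKM, followed by Mir22hg at 32.2 ± 1.59, Gas5 at 22.8 ± 1.73 and Dnm3os at 22.1 ± 1.09 RPKM, of which the last pair overlapped. Snhg1, Neat1, Snhg8, Snhg12 and H19 lay between 4.22 and 7.65 RPKM there, and H19 overlapped Snhg12 and Snhg8 in this range. The RPKM of Mir17hg is understated, since the exon model used for its length, 3536 bases, is longer than the counted row. The models of Snhg1, Snhg12 and Snhg8, at 2969, 2402 and 853 bases, also exceed their whole spans of 2840, 2347 and 785 bases. For Gas5 the model covers 3760 of 3939 bases, although its transcripts are spliced. The RPKM of the Snhg genes is thus understated too, and that of Gas5 may be. Places of these snoRNA hosts in the order are therefore uncertain.

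For 9 of the 10 genes, the gene with the most similar pattern of log2 CPM over the 12 libraries is given by its Pearson correlation, as a description in which all genes share the 4 groups and the same libraries. After the group means were taken out, r was -0.175 for Dnm3os and Col8a2 and 0.602 to 0.949 for the other 8 pairs. Neat1 was closest to Tsc22d1 (r = 0.997), Mir22hg to Pkp2 (0.995), Dnm3os to Col8a2 (0.992), H19 to Myl6b (0.985) and Snhg1 to Fam131b (0.985). Malat1 was closest to Dyrk1b (0.980), Snhg12 to Ctla2a (0.970), Mir17hg to Tnpo1 (0.967) and Snhg8 to Zfp553 (0.857). Among the 10 genes themselves, Dnm3os and Snhg1 were the most alike (0.958), Mir22hg and Mir17hg reached 0.920 and Gas5 and Snhg12 0.813, and the most opposed were H19 and Mir22hg (-0.939).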

How the data were processed

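Raw counts were deposited by the authors for each of the 12 libraries. According to their methods, poly(A) RNA libraries were sequenced as single reads, aligned to mm10 with TopHat and counted on RefSeq genes with HTSeq-count in strand-specific mode, leaving out low-quality alignments. Reads in no gene, in several genes or aligned to several places were kept apart (no gene 10.3% to 15.4%, several genes 0.225% to 0.274% and several places 11.2% to 11.7% of read entries) and entered neither library sizes nor tests. From the counts, genes with RPKM >1 in at least 1 library were tested in 1 fit of all libraries with edgeR 4.0.16 in R 4.3.3 (TMM, quasi-likelihood test, Benjamini-Hochberg adjustment, called at an FDR below 5%). Exon lengths came from GENCODE models of the same build, matched by current symbol for 24415 and by older symbol for 301 of 25230 genes. Contrasts were TGF over SD in each genotype, KO over WT in each condition, and the difference between the responses. These comparisons share libraries, since each group enters more than 1 of them.

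Alternatives were library-size scaling, DESeq2 1.42.0, a limit of CPM >1 in 3 libraries, testing without any limit, a replicate block, a fit of the compared groups and leaving out each library. Replicates of a group differed by 1.33 to 5.20 times the counting noise, so none was counted as a repeat of another. A count of 3 corresponded to 0.130 to 0.161 CPM. Groups and replicate numbers came from the sample titles. The 10 genes, the gene lists and the tests were chosen with earlier results of these data known. All 10 genes are described. From each list, the genes with the largest called change in either direction and at least 5 CPM in the higher group were named, and Rian, Firre, Meg3, Mir155hg, Myc, Nap1l1, Tpt1 and the neighbors of H19 and Dnm3os are given further values chosen after these were seen. For each of the 10, the gene with the highest correlation among genes tested was taken. Some genes that these rules chose are not reported here. The script was tested on simulated counts. RefSeq promoter windows were held for 8 of the 10 genes.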

Additional observations from a re-analysis of the deposited data

Results flagged for a closer look

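The response to TGF-β differed between KO and WT for 6 of the 10 genes by the test of the difference itself (edgeR, adjusted over all genes tested), beside 25.3% of all genes, with 1 higher and 5 lower beside 8.67% and 16.6%. The response in KO minus that in WT was -0.82 on the log2 scale for Dnm3os, -1.39 for H19, -0.44 for Snhg1, -0.46 for Snhg12 and -0.75 for Snhg8, and it was 0.33 for Malat1. Dnm3os and Snhg1 rose more in WT than in KO, and both were higher in KO before treatment. H19 fell more in KO. Malat1 fell less in KO and was lower there before treatment. Snhg12 fell in KO and did not pass the test in WT. The difference for Snhg8 did not pass with DESeq2 (adjusted p = 0.223) or when any 1 of 5 libraries was left out.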

How the results depend on the processing

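Of the fold changes of the 10 genes under all alternatives, 820 kept their sign and their side of the threshold, 18 gained a call, 16 lost one and 35 turned sign. Library-size scaling moved the number of genes higher in KO with TGF-β to 1 and lower to 6, and turned the TGF-β response of Snhg8 (-0.0022) and Snhg12 (-0.084) in WT and of Snhg1 in KO (-0.048), Mir22hg in KO against WT (-0.0094 without and -0.038 with TGF-β), and the difference between responses of Gas5 (-0.044), Mir22hg (-0.028) and Mir17hg (-0.030). Without a filter, the response of Gas5 in WT was 0.0030 and the difference between responses was -0.015 for Gas5 and -0.00097 for Mir17hg, and with the CPM filter it was -0.0041 for Gas5. Apart from Snhg1, none of these was past the threshold in the values as reported, and the cause was not tested. Leaving out 1 library gave 1 to 2 genes that differed by more than 2-fold in KO against WT with TGF-β (1 without WT-TGF replicate 1 or KO-TGF replicate 3) and 0 to 1 for the difference between responses (0 without WT-TGF replicate 1). Signs also turned in these ranges, in TGF-β responses for Gas5 (-0.071 to 0.012 in WT, -0.056 to 0.054 in KO) and Snhg12 in WT (-0.014 to 0.15), in KO against WT for Mir17hg without TGF-β (-0.010 to 0.30) and for Dnm3os (-0.059 to 0.0084), Malat1 (-0.10 to 0.058) and Snhg1 (-0.053 to 0.027) with it, and in the difference between responses for Gas5 (-0.037 to 0.099), Mir22hg (-0.020 to 0.096) and Mir17hg (-0.10 to 0.21). Same-numbered libraries did not deviate together (correlations -0.0143 to 0.0654 over 12 pairs), so the numbers were not taken to pair samples. With the replicate block, H19 in KO against WT without TGF-β (0.28, adjusted p = 0.0193, edgeR) and the difference between responses of Neat1 (-0.13, adjusted p = 0.0351) gained a call. Mir17hg and Snhg8, with 42 to 170 counts a library, are the values most limited by depth.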
